A study of Mus musculus with 2 samples.

Results

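Endothelial cells without a count of Plvap were examined in droplet libraries of the optic cup of Abca4KO mice, a strain that lacks the photoreceptor transporter ABCA4. The cells were chosen by their transcripts. A barcode was kept with at least 500 UMIs (unique molecular identifiers, each standing for 1 captured RNA molecule), at least 300 genes and at most 25% mitochondrial UMIs. A kept cell was a member with at least 1 UMI of 3 or more of Pecam1, Cdh5, Kdr, Flt1, Egfl7, Cldn5 and Tie1, no UMI of Rgs5, C1qa, Dcn, Rpe65 or Trpm1, and no UMI of Plvap. Of 62485 kept cells, 380 met this rule, 249 of them in the library labelled GFP and 131 in that labelled sponge. Of these members, 250 also held a UMI of Mfsd2a, Slco1a4 or Slco1c1 and are described apart below as the transporter-bearing members.

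The study had 2 libraries, both from Abca4KO animals whose labelled age was 4 months. In 1 library the label gives AAV2.8-GFP, a control vector, and in the other AAV2.8-Sponge.mir181, a vector for an RNA that binds miR-181a and miR-181b. The design describes a subretinal injection at 2 months of age, with the sponge vector in 1 eye and the control in the opposite eye, and collection 4 months after injection, which does not match the labelled age. The promoters of the vectors, the number and sex of the animals and any pooling were not given in the sources used here, and no uninjected or wild-type eye was included. Since each group was a single library, no test was made: intervals below are exact 95% intervals that cover counting error only, and a difference between the libraries is a difference between 2 libraries. In counts summed over cells, fewer cells of a type within a set and less RNA per cell cannot be told apart.

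The capillaries of the inner retina form the inner blood-retina barrier: their endothelial cells are sealed by tight junctions, have few caveolae, and carry nutrients across by dedicated transporters, a state kept up by Norrin and Wnt signals through FZD4, LRP5 and TSPAN12. MFSD2A imports lysophospholipids that carry omega-3 fatty acids and limits caveolar transport, and SLCO1A4 and SLCO1C1 carry organic anions and thyroid hormone. The choriocapillaris beneath the pigment epithelium is fenestrated, and PLVAP builds the diaphragms of its fenestrae, so the absence of Plvap is used as a sign of barrier-type vessels.

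The microRNAs that the sponge is directed against carry the same seed, the stretch that pairs with target RNA, and are shown to make that identity visible. The mature sequences are from RefSeq (GRCm38.p6), with the seed, bases 2 to 8, in capitals. Both have a copy on chromosome 1 and a copy on chromosome 2: miR-181a-5p at chr1:137966468-137966490 and chr2:38852741-38852763, and miR-181b-5p at chr1:137966650-137966673 and chr2:38853845-38853868, all on the plus strand.
mmu-miR-181a-5p: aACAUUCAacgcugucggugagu
mmu-miR-181b-5p: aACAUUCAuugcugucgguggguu

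The matching DNA letters, TGAATGT, were searched in annotated 3' UTRs on the transcript's strand, and 3623 of 20833 genes with an annotated 3' UTR held them. The match followed by an A was sought in the rule genes and in some of the lists used here. These were the pan-endothelial, barrier, junction, Norrin and Wnt, capillary, VEGF receptor, TGF-beta, Notch and flow-response lists, and not every position entered. Among the genes so searched, 8 held the match followed by an A. The 4 of these with the most UMIs in members are shown, read 5′ to 3′ on the transcript's strand (mm10), with the match and the following A in capitals. They are Flt1, a VEGF receptor (chr5:147561650-147561656, minus strand), Timp3, an inhibitor of matrix proteases (chr10:86349416-86349422, plus strand), Slc7a1, a carrier of cationic amino acids (chr5:148328538-148328544, minus strand), and Abcc4, an efflux pump of the barrier (chr14:118482954-118482960, minus strand). The coordinates are those of the match. A match is a description of these letters and not a shown site of binding.
Flt1: tctagtcatgaTGAATGTAtttcacatat
Timp3: tttatattccgTGAATGTAtattgtcttg
Slc7a1: agagtcagcgcTGAATGTAtgtcatgtta
Abcc4: gaagtctgtaaTGAATGTAattatgttta

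The libraries differ in ways that touch every comparison below. The library labelled GFP, called the GFP library from here, gave 39285 kept cells, whose median depth was 2415 UMIs. The other, the sponge library, gave 23200, whose median depth was 2980.5 UMIs. UMIs of eGFP went against the labels in kind. Cells with UMIs of 3 or more rod genes and none of the 7 endothelial genes, called rod-gene cells, held 3 in the GFP library and 2553 in the sponge library, so the labels are used only as names. No member barcode occurred among the members of both libraries, although 287 kept barcodes were shared, of which 4 were members in the GFP library and 2 in the sponge library. The set of rod-gene cells is not pure: the 10 pigment-epithelium genes took over 100 of 10000 UMIs in 560 and 375 of its 18895 and 12211 cells, and the 10 melanocyte genes in 1443 and 571. Plvap was counted in 2.73% of rod-gene cells in the GFP library and 3.93% in the sponge library, and the shares in these cells are given below for comparison, not as a measured background.

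Members were 0.634% of kept cells in the GFP library (95% Clopper-Pearson interval 0.558 to 0.717) and 0.565% in the sponge library (0.472 to 0.670). The intervals overlap, and with the rule on cells thinned to 1000 UMIs the order turned, to 0.495% (0.427 to 0.570) and 0.637% (0.536 to 0.751). The rule set these shares to a large extent: 1571 and 738 cells held 3 or more of the 7 endothelial genes, and the 5 excluding genes removed 81.9% of them in the GFP library and 79.3% in the sponge library. Trpm1, a channel of ON bipolar cells, was counted in 65.0% and 62.3% of those cells and in 60.1% and 51.4% of rod-gene cells, and it alone removed 409 and 217 of them. The members that remained had a median of 2660 UMIs in the GFP library and 6408 in the sponge library. Just outside the rule stood 1228 and 882 cells with 2 of the 7 genes, no excluding gene and no Plvap UMI, and 15 and 8 cells that passed but for a single Plvap UMI.

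The label was checked against 22 further endothelial genes that the rule does not use, among them Emcn, Ly6c1, Erg, Ptprb and Tek. A member with UMIs of 3 or more of them is called supported, a threshold chosen after the data were seen. In the GFP library 185 of 249 members were supported (74.3%, interval 68.4 to 79.6), and in the sponge library 66 of 131 (50.4%, 41.5 to 59.2). Only 0.677% and 0.983% of rod-gene cells reached the same threshold, and 88.9% and 95.5% of the Plvap-positive cells of the same rule did. Support followed the number of rule genes: with exactly 3 of them, 55.1% of members were supported in the GFP library but 13.9% in the sponge library, and with 4 or more the shares were 98.2% and 94.9%. Members of the sponge library were thus the deeper ones and the less often supported ones.

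**Figure D1:**
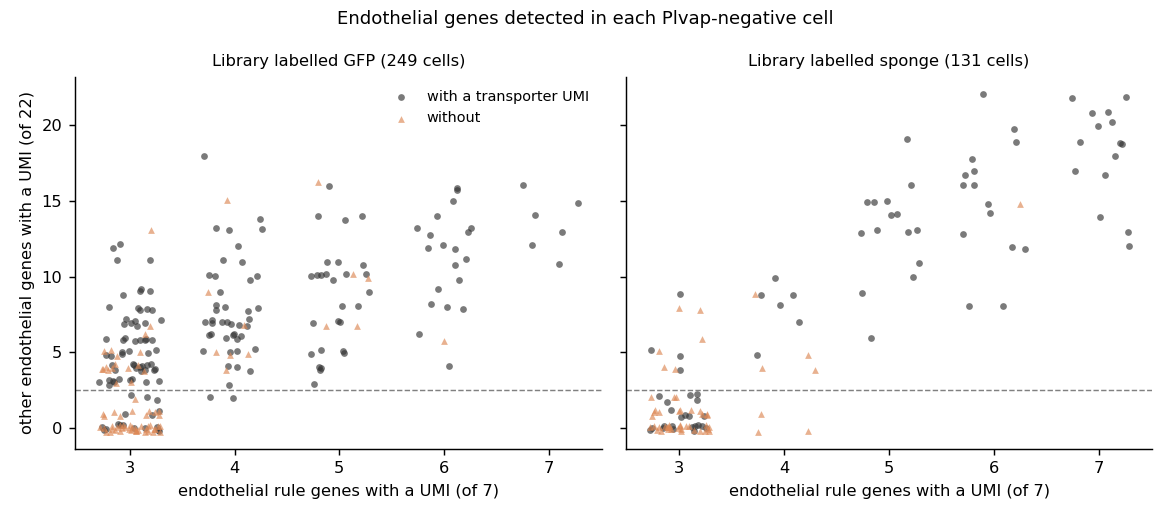
Number of rule genes with a UMI (horizontal axis, of 7) against the number of further endothelial genes with a UMI (vertical axis, of 22) for each member, with small random offsets; circles are members with a UMI of Mfsd2a, Slco1a4 or Slco1c1, triangles are those without, and the dashed line is the threshold of 3 genes. Members with 3 rule genes crowd below the line in the sponge library (13.9% above it), while those with 4 or more lie almost all above it (94.9%).

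Kdr and Flt1 were each counted in most of the unsupported members, which numbered 64 in the GFP library and 65 in the sponge library. Kdr, the main VEGF receptor, was counted in 93.8% and 95.4% of them and Flt1 in 95.3% and 95.4%, whereas Cdh5, the adherens-junction cadherin of endothelium, was counted in 6.25% and 7.69%. The 10 genes listed for Müller glia and astrocytes took a median of 113 of 10000 UMIs in unsupported members of the GFP library and 194 in the sponge library, against 27.4 and 21.3 in supported members. Glul, the glutamine synthetase of Müller glia, stood at 2885 and 4288 CPM (counts scaled to 1000000 UMIs of the set) in unsupported members and at 1184 and 813 in supported ones. Unsupported members lack the further endothelial genes by definition. Kdr, Flt1 and Cdh5 are genes of the rule, so their shares follow in part from the choice of cells. The glial genes of unsupported members go against an endothelial label, and those cells are called by the rule only. Since the rule asks for 3 genes, each of them also held a rule gene other than Kdr and Flt1. The shares with Pecam1, Egfl7, Cldn5 and Tie1 are not given here.

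Markers of some other cells were present in most members, and those of others sat in few. The 12 rod genes summed to 8516 CPM in members of the GFP library and 5014 in the sponge library, with a median of 86.8 and 47.6 of 10000 UMIs and 96 and 26 members over 100. In rod-gene cells themselves the same genes summed to 11469 and 10591 CPM, so members held much rod RNA. The 10 Müller glia and astrocyte genes summed to 6238 and 10989.8 CPM, at medians of 34.2 and 48.6 of 10000, with 51 and 53 members over 100 of 10000. The 12 pericyte and smooth-muscle genes summed to 101 CPM in members of the GFP library and 104 in the sponge library, with Rgs5, Cspg4 and Higd1b at 0. The 12 microglia and macrophage genes summed to 73.4 and 56.0 CPM, with C1qa at 0 by the rule. Red-cell genes summed to 5164 CPM in supported members of the GFP library, where 5 cells gave them over 100 of 10000 UMIs, and to 100.2 CPM in the sponge library. Ocular-surface genes, such as corneal keratins, summed to 3276 CPM in members of the sponge library, where 2 cells gave them over 100 of 10000 UMIs, and to 388 CPM in the GFP library. The part of these cells in the results was not tested, apart from the values without them given below.

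Among the genes that chose the cells, Flt1 was the highest at 2485 CPM in members of the GFP library and 2887 in the sponge library. Cldn5, the main claudin of barrier endothelium, followed at 620.0 and 1116 CPM, and Kdr at 408 and 543. Pecam1, an adhesion molecule of endothelial contacts, stood at 322 and 326 CPM, and Cdh5 at 181 and 197. These levels follow from the rule and are given as a description.

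The transporter-bearing members numbered 173 in the GFP library and 77 in the sponge library, and 89.0% and 71.4% of them were supported, against 40.8% and 20.4% of members with none of the 3 transporters. Their depth was close to that of the others: medians of 2660 against 2671.5 UMIs in the GFP library and 6408 against 5928.5 in the sponge library. Slco1a4 was counted in 146 and 56 cells, Slco1c1 in 115 and 62, and Mfsd2a in 37 and 30. At least 2 of the 3 were counted in 103 and 46 cells, and all 3 in 22 and 25. In rod-gene cells, Slco1a4 was counted in 3.34% and 2.39% of cells and Mfsd2a in 0.836% and 0.835%. Slco1a4 stood at 648 CPM (592 to 707) over all members of the GFP library and 499 (457 to 543) in the sponge library, Slco1c1 at 391 (348 to 438) and 356 (321 to 394), and Mfsd2a at 59.0 (43.0 to 78.9) and 58.9 (45.2 to 75.5). Mfsd2a thus had nearly the same summed level in both libraries, while its share of cells was higher in the sponge library, 22.9% against 14.9%, and 8.59% against 5.24% once every cell was thinned to 1000 UMIs. The unthinned intervals for Mfsd2a, 10.7 to 19.9 and 16.0 to 31.1, overlap.

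Transporter-bearing members held more RNA of endothelial genes in general than members without a transporter, in both libraries. Of the 20 measured pan-endothelial genes outside the rule, 20 were higher in both, with a median log2 ratio of 1.48 in the GFP library and 3.26 in the sponge library, beside a median of 0.00 in both over the 6260 genes measured, of which 2093 were higher in both and 2042 lower in both. Of the 23 measured barrier and transporter genes, 19 were at least 2-fold higher in both libraries, with medians of 1.82 and 3.07. Over all 6260 genes, 5.72% were at least 2-fold higher and 2.06% at least 2-fold lower in both. Because the transporters define the split, these values describe the members and support nothing further.

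Among the genes farthest apart in that split were those of barrier capillaries. Abcb1a, which encodes the drug-efflux pump P-glycoprotein, stood at 82.8 CPM without and 724 with a transporter in the GFP library, a log2 ratio of 3.09 (2.46 to 3.87), and at 26.9 and 683 in the sponge library, 4.60 (3.78 to 5.74). Itm2a, a membrane protein of brain and retina capillaries, went from 65.4 to 559 CPM and from 24.2 to 717. Slc7a1 went from 43.6 to 449.9 CPM and from 40.3 to 375. Spock2, an extracellular proteoglycan, Atp10a, a phospholipid flippase, Hmcn1, a basement-membrane protein, and Cxcl12, a chemokine, were further named genes, at log2 ratios of 3.08 and 5.57, 3.76 and 4.51, 3.64 and 5.66, and 2.63 and 5.50.

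The genes lower in transporter-bearing members included glial and neuronal ones. Aqp4, the water channel of Müller end-feet, stood at 466 CPM without and 176 with a transporter in the GFP library, and at 803 and 325 in the sponge library. Slc1a3, the glial glutamate transporter, went from 545 to 261 CPM and from 873 to 319, and Apoe from 2872 to 1430.2 and from 6432 to 2485. Lsamp, a neural adhesion molecule, had log2 ratios of -1.23 and -1.09. Kdr was also lower, at -0.49 in the GFP library and -0.60 in the sponge library, in contrast to Flt1, Cldn5, Pecam1 and Cdh5, whose levels were all higher with a transporter. All of these, Kdr included, are genes of the rule, so their levels follow in part from the choice of cells and are given as a description.

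**Figure D2:**
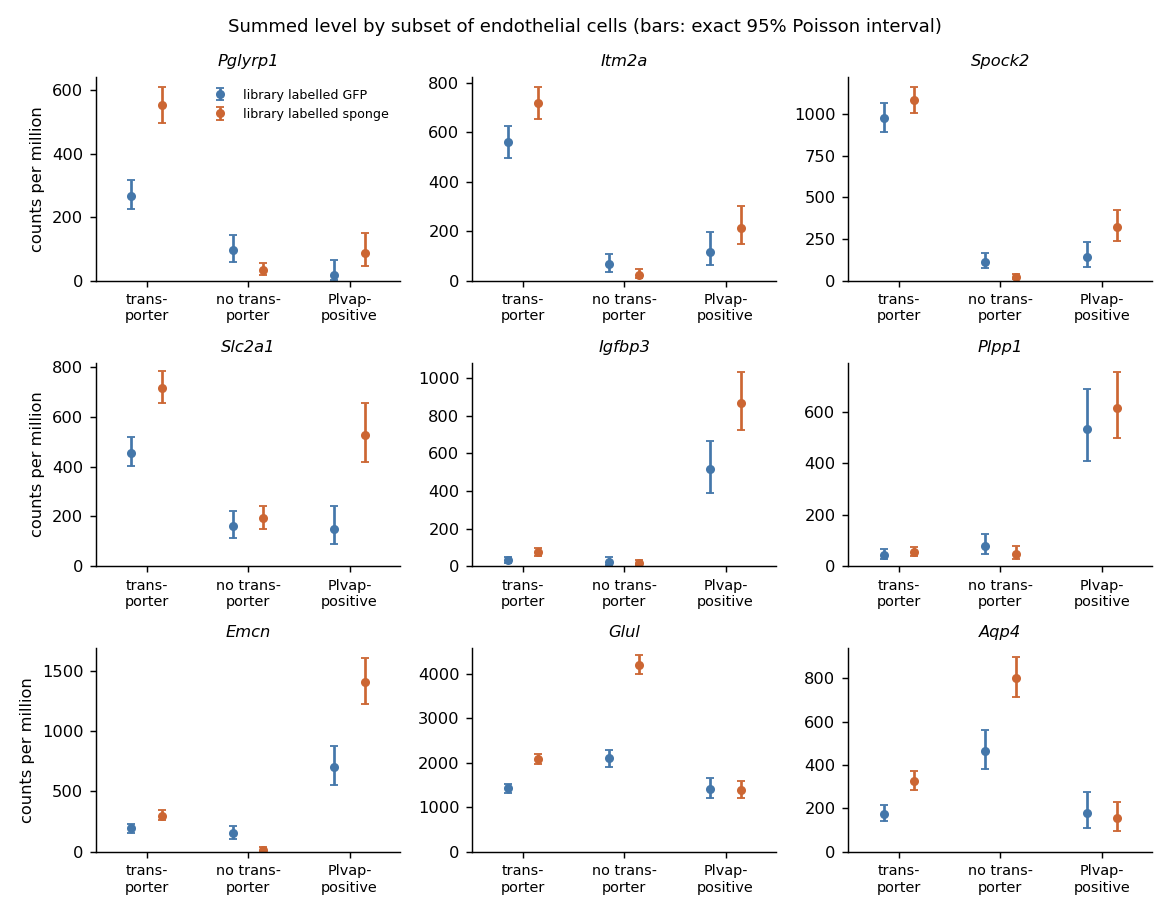
Summed level (vertical axis, CPM) of 9 genes in members with a transporter UMI, members without and Plvap-positive cells of the same rule, with the GFP library in blue and the sponge library in orange; bars are exact 95% Poisson intervals. Pglyrp1, Itm2a and Spock2 are highest in members with a transporter, Igfbp3, Plpp1 and Emcn in Plvap-positive cells, and Glul and Aqp4 in members without a transporter.

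Against the Plvap-positive cells of the same rule, 36 in the GFP library and 22 in the sponge library, transporter-bearing members had higher levels of barrier genes and lower levels of genes of fenestrated vessels in both libraries. Of 23 measured barrier and transporter genes, 19 were above a ratio of 1 in both libraries and 15 at least 2-fold higher in both, with median log2 ratios of 2.35 and 1.61. Of 10 measured genes of fenestrated and choroidal endothelium, 8 were lower in both and 7 at least 2-fold lower in both, with medians of -1.80 and -1.60. Over the 5499 genes measured, the medians were -0.05 and 0.07, and 2.20% were at least 2-fold higher and 1.71% at least 2-fold lower in both. The values describe cells that the rule split by Plvap and the transporters, and the Plvap-positive cells held 112357 UMIs in the GFP library and 149568 in the sponge library, so single low genes are measured on few counts.

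On the barrier side, Pglyrp1, a peptidoglycan-recognition protein marking brain and retina endothelium, stood at 17.8 CPM in Plvap-positive cells and 268 in transporter-bearing members of the GFP library, and at 86.9 and 553 in the sponge library, log2 ratios of 3.60 (2.03 to 6.97) and 2.62 (1.88 to 3.59). Bsg, the chaperone of monocarboxylate transporters, went from 436 to 2502 CPM and from 1250.3 to 4424. Its partner Slc16a1, a lactate carrier, went from 80.1 to 307 and from 86.9 to 492. Every one of these levels lay outside the interval of the other cell set.

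Further carriers followed the same order. Slc39a10, a zinc importer, had log2 ratios of 2.77 and 2.19, Slc7a5, which carries large neutral amino acids, of 2.35 and 1.75, Tfrc, the transferrin receptor, of 1.79 and 2.74, and Abcb1a of 2.30 and 1.61. Slc22a8, an organic-anion carrier, was at 0 UMIs in Plvap-positive cells of the GFP library and at 61.9 CPM in transporter-bearing members, and at 6.69 and 88.2 CPM in the sponge library. Slc2a1, the glucose transporter GLUT1, was less even: 151 and 457 CPM in the GFP library, a log2 ratio of 1.56 (0.89 to 2.40), but 528 and 717 in the sponge library, 0.43 (0.10 to 0.80). Slc6a6, the taurine carrier, and Ly6a, a surface antigen, were not higher, at log2 ratios of -0.11 and -0.37 and of -0.37 and -0.56.

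Of transcription factors and junction genes, some went the same way. Foxq1, a forkhead factor of brain endothelium, stood at 17.8 and 208 CPM in the GFP library and 26.7 and 213 in the sponge library. Lef1, which carries Wnt signals to DNA, had log2 ratios of 1.54 (0.89 to 2.35) and 1.41 (0.89 to 2.04), and the 13 measured Norrin and Wnt genes had medians of 0.80 and 0.83, with 8 higher in both. Ocln, which encodes the tight-junction protein occludin, went from 8.90 to 101 CPM and from 13.4 to 143. Over 10 measured junction genes the medians were 0.64 and 0.45, with 6 higher in both. Over the 5499 genes measured, 1469 were higher in both libraries and 1414 lower in both.

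On the fenestrated side, Igfbp3, a binding protein of insulin-like growth factors, stood at 516 CPM in Plvap-positive cells and 31.9 in transporter-bearing members of the GFP library, and at 869 and 73.5 in the sponge library, log2 ratios of -3.99 (-4.89 to -3.22) and -3.56 (-4.06 to -3.08). Plpp1 and Plpp3, lipid phosphatases, had ratios of -3.55 and -3.49 and of -2.30 and -1.68. Timp3 was the highest of the group, at 2804 CPM in Plvap-positive cells against 500.5, and 2480.5 against 653. Those lower levels of Timp3 are near its level in rod-gene cells, 511 and 459.5 CPM. Emcn, an endothelial sialomucin, had ratios of -1.87 and -2.23, Cyp26b1, which degrades retinoic acid, of -4.04 and -3.24, and Aqp1 of -2.88 and -1.24.

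**Figure D3:**
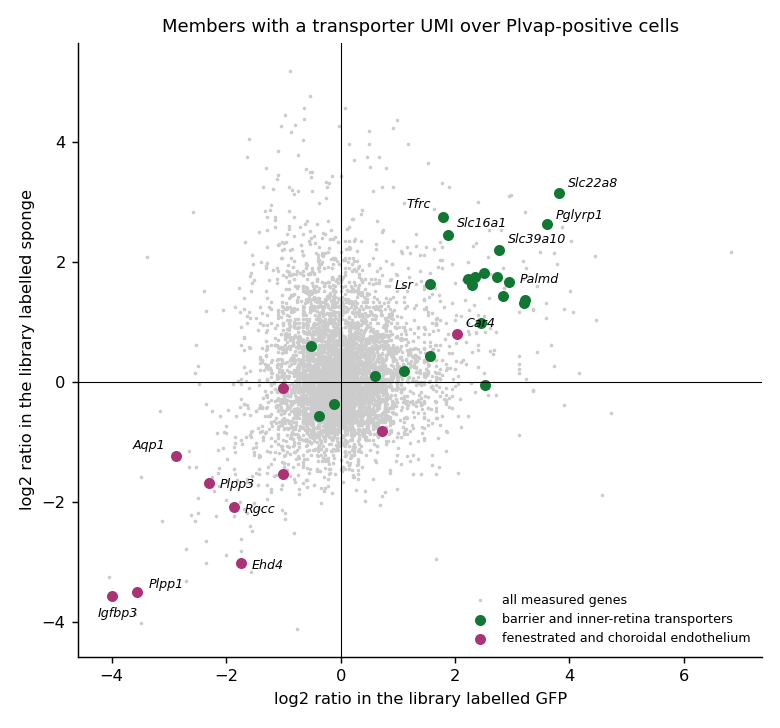
Log2 ratio of the summed level in members with a transporter UMI over Plvap-positive cells, with the GFP library on the horizontal axis and the sponge library on the vertical axis, each point 1 gene, with 0.5 added to both counts. Green points are the barrier and transporter list (medians 2.35 and 1.61) and purple points the fenestrated list (medians -1.80 and -1.60); rule genes are left out.

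Not every Plvap-positive cell lacked the transporters: Slco1a4 was counted in 6 of the 36 in the GFP library (16.7%) and 7 of the 22 in the sponge library (31.8%). Plvap itself was at 1 UMI in 15 and 8 of these cells. Restricting the transporter-bearing members to the supported ones, an alternative chosen after the data were seen, gave barrier medians of 2.46 and 2.29 and fenestrated medians of -1.78 and -1.24. The separation of the lists was as large in that set, apart from the fenestrated median in the sponge library, which was nearer 0.

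Genes of arterial and of venous position were each counted in part of the supported members, which does not assign single cells to a vessel. Any of the arterial genes Gja5, Gja4, Bmx, Sema3g and Gkn3 was counted in 24.9% (18.8 to 31.7) of supported members of the GFP library and 22.7% (13.3 to 34.7) in the sponge library. Any of the venous genes Slc38a5, Vwf, Ackr1 and Nr2f2 was counted in 35.1% (28.3 to 42.5) and 54.5% (41.8 to 66.9), and neither group in 50.8% and 36.4%, while 10.8% and 13.6% held both. The intervals of the libraries overlap for both groups of genes. Unsupported members held a venous gene in 15.6% and 20.0% of cells and an arterial gene in 4.69% and 3.08%. Bmx, a kinase of arterial endothelium, was the most frequent arterial gene, in 29 and 10 cells, and Vwf, the clotting factor carrier, the most frequent venous gene, in 42 and 30. Vwf is among the 22 genes that define support, so the venous shares of supported members follow in part from the choice. Slc38a5 also belongs to the barrier and transporter list used here. Depth differed, 2536 against 4828.5 UMIs as medians of supported members, and with cells thinned to 1000 UMIs Vwf was counted in 7.61% and 13.8%. Nr2f2 was counted in 9.59% and 10.1% of rod-gene cells and Ackr1 in 4.73% and 6.99%, and these genes are part of the venous group.

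Between the libraries, 10012 genes were measured in members with 20 or more counts. Of these, 7.19% were at least 2-fold higher and 4.80% at least 2-fold lower in the sponge library, 55.2% were above 0, and the median log2 ratio was 0.07. Among transporter-bearing members, 8446 genes were measured, with 7.60% at least 2-fold higher, 5.56% at least 2-fold lower and 55.6% above 0. Among supported members, 7424 genes were measured, with 6.90%, 9.68% and 53.7%. Ratios below are the sponge library over the GFP library.

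Many of the genes farthest apart were those of other cells and rested on few members. The 15 highest named genes in members were led by corneal and conjunctival epithelial genes: Krt12, the corneal keratin, stood at 35.4 CPM in the GFP library and 1199.7 in the sponge library, with 68.1% of the latter from 1 cell. Krt15 and Krt6a took 97.8% and 62.2% of their UMIs in the sponge library from 1 cell, and for each of the 15 the largest cell gave at least 50%. Krt12 was also counted in 6.31% of rod-gene cells in the GFP library and 25.4% in the sponge library. At the other end, the globin genes Hbb-bs, Hba-a1, Hba-a2 and Hbb-bt were lower in the sponge library, Hbb-bs at 2496 and 42.7 CPM, with 33.9% of the former from 1 cell.

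Lcn2, which encodes the iron-sequestering acute-phase protein lipocalin 2, differed in many cells. It stood at 644 CPM (588 to 703) in members of the GFP library, in 74 cells, and at 17.1 (10.1 to 27) in the sponge library, in 9 cells, a log2 ratio of -5.20 (-6.00 to -4.56). Among supported members the levels were 238 and 15.9 CPM. The same gene stood at 444 and 27.3 CPM in kept cells outside the endothelial candidates and was counted in 25.5% and 2.42% of rod-gene cells, so the difference was not confined to the members.

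Antigen-presentation genes were higher in the sponge library. Of 25 measured, 25 were above 0 and 9 at least 2-fold higher, with a median log2 ratio of 0.80, and in transporter-bearing members 21 of 21 were above 0 with a median of 0.82. H2-D1, a heavy chain of class I, stood at 288 and 643 CPM, a log2 ratio of 1.15 (0.94 to 1.38), and was counted in 121 of 249 and 98 of 131 cells. H2-K1, another heavy chain, stood at 185 and 355 CPM, B2m, the light chain, at 468 and 658, and Psmb8, a subunit of the immunoproteasome, at 49.8 and 132. H2-Ab1, a class II chain, stood at 21.0 and 73.1 CPM in all members, a log2 ratio of 1.77 (1.01 to 2.68), but at 15 and 27.9 in transporter-bearing members, 0.85 (-0.36 to 2.30).

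Interferon-response genes had the same median, 0.80, with 32 of 36 above 0 and 15 at least 2-fold higher. Irf1, a transcription factor of that response, stood at 72.1 and 199 CPM, and Iigp1, an immunity-related GTPase, at 45.9 and 145. In transporter-bearing members the list's median was 0.61, with 30 of 32 above 0. Both lists were also higher in kept cells outside the endothelial candidates, with medians of 1.16 for antigen presentation (27 of 27 above 0) and 1.08 for the interferon response (41 of 41), and H2-D1 stood there at 138 and 398 CPM. The direction was thus shared with the other cells of the libraries, and no difference particular to the members is claimed.

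Against the Plvap-positive cells, antigen presentation was a list whose medians did not go the same way in the libraries. In the GFP library transporter-bearing members had a median log2 ratio of 0.10 over Plvap-positive cells for 12 measured genes, with 8 above 0. In the sponge library the median was -1.02, with 0 of 12 above 0. Of the 12, 4 were lower in both libraries, beside 1414 of all 5499 genes measured, and H2-D1 was among the 4. H2-D1 stood at 489.5 CPM in Plvap-positive cells and 317 in transporter-bearing members of the GFP library, and at 1758 and 719 in the sponge library. The difference was not tested.

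Immediate early genes, which cells switch on within minutes of a stimulus and which tissue dissociation also raises, were mostly higher in the sponge library. With heat-shock genes in the list, 20 of 26 were above 0 with a median of 0.56. Fosb, a subunit of the factor AP-1, stood at 304 and 794 CPM, Junb, its partner, at 539 and 1216, Btg2, an antiproliferative gene, at 426 and 1124, and Fos at 1409 and 2396. Hspa1b, which encodes an inducible HSP70, stood at 1916 and 828 CPM, a log2 ratio of -1.21 (-1.33 to -1.09), and at 0.03 with more excluding genes, which left 23 and 9 members. Among the other heat-shock genes, Hsph1, Hspb1, Hsp90aa1 and Hspa1a had ratios of -0.56, -0.28, -0.26 and -0.11, and Hspa8 and Dnajb1 of 0.28 and 0.83. In kept cells outside the candidates the list's median was 0.67, with Fosb at 271 and 491 CPM and Hspa1b at 347 and 207.

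**Figure D4:**
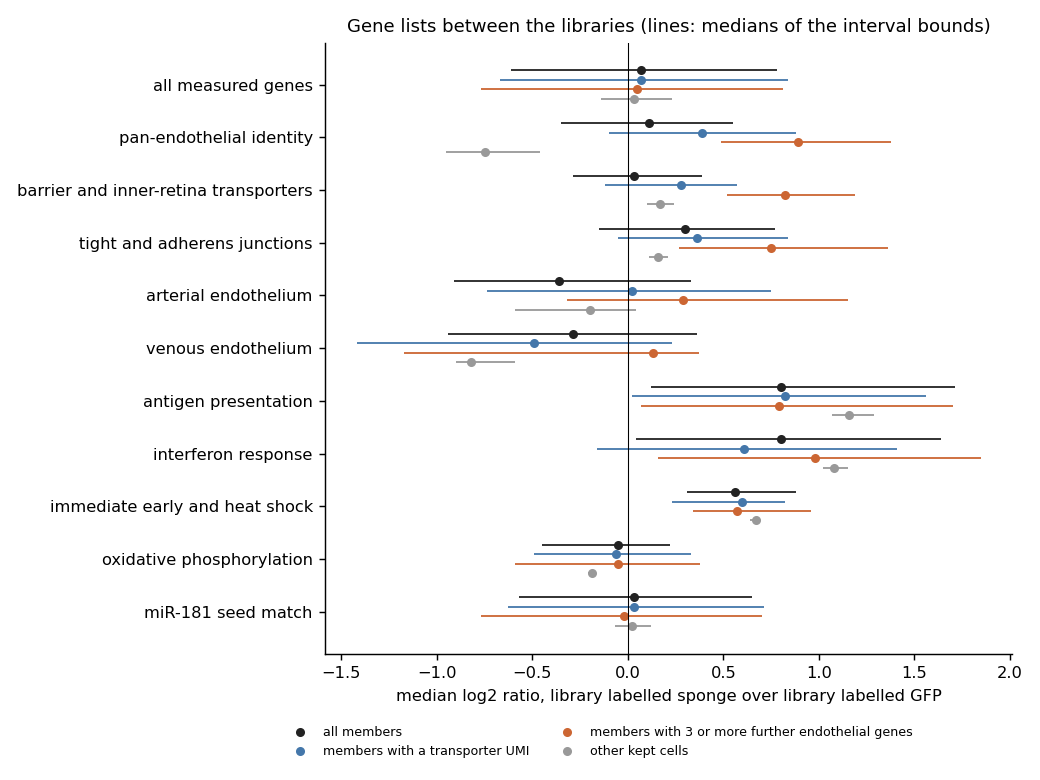
Median log2 ratio of the sponge library over the GFP library for 11 gene lists, in all members (black), members with a transporter UMI (blue), supported members (orange) and other kept cells (grey); lines run between the medians of the genes' lower and upper interval bounds. Antigen presentation, the interferon response and immediate early genes lie above 0 in all 4 sets, while the pan-endothelial and barrier lists lie at 0.11 and 0.03 in all members and at 0.89 and 0.82 in supported members.

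Endothelial identity and barrier genes depended on which members were counted. In all members the 22 pan-endothelial genes had a median log2 ratio of 0.11, with 16 above 0, and the 24 barrier and transporter genes 0.03, with 12 above 0. In transporter-bearing members the medians were 0.39 and 0.28, and in supported members 0.89 and 0.82. Support was itself defined by detection of pan-endothelial genes, so their median in supported members follows in part from the choice. The same shift from all to supported members was seen for junction genes, 0.30 to 0.75, and for Norrin and Wnt genes, 0.09 to 0.51, and supported members numbered 185 of 249 in the GFP library against 66 of 131 in the sponge library. Esam of the junction list and Sox17 of the Norrin and Wnt list are among the 22 genes that define support. These shifts are thus not independent of that choice. The 12 rod genes summed to 8214 CPM in supported members of the GFP library and 4149 in the sponge library. The part of that difference in the medians was not tested.

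Single barrier genes followed that pattern. Slc2a1 stood at 368 and 532 CPM in all members, a log2 ratio of 0.53 (0.32 to 0.74), and at 462 and 1055 in supported members, 1.19 (0.97 to 1.42). Bsg had ratios of 0.70 and 1.42, and Slc16a1 of 0.48 and 1.29. Abcb1a changed its direction, with -0.23 (-0.43 to -0.04) in all members, -0.08 in transporter-bearing ones and 0.60 (0.41 to 0.80) in supported ones. Tfrc went from -0.76 to 0.05, Slc7a1 from -0.35 to 0.39 and Ly6c1, a surface antigen of capillaries, from -0.30 to 0.52. Ly6c1 is among the 22 genes that define support, so its turn follows in part from the choice. Spock2 stood at 717 and 707 CPM in all members, a ratio of -0.02 (-0.18 to 0.14), and had 0.82 in supported ones.

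Cldn5 was the named gene whose lower interval bound lay farthest above 0 among supported members, at 798 and 2622 CPM, a log2 ratio of 1.72 (1.56 to 1.88), though it is a gene of the rule. Sox7 and Sox18, transcription factors of endothelial identity, stood at 48.0 and 169 CPM and at 28.4 and 112 in supported members, and their relative Sox17 had a ratio of 1.45 (0.85 to 2.09). All of these Sox genes are among the 22 that define support, so their levels in supported members follow in part from the choice. Klf2, induced by blood flow, stood at 528 and 1627 CPM in supported members and at 404 and 679 in all members, while in kept cells outside the candidates it was level at 32.5 and 38.8. In Plvap-positive cells Klf2 stood at 160.2 and 1230.2 CPM and Cldn5 at 258 and 1183. Lef1 had a ratio of -0.13 (-0.36 to 0.10) in all members and 0.69 (0.46 to 0.92) in supported ones, and Apcdd1, a Wnt target, of 0.42 and 1.02.

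Most measured genes of vessel position were lower in the sponge library in all members, while their medians were above 0 in supported ones. The 16 measured arterial genes had a median of -0.36 in all members, 0.02 in transporter-bearing and 0.29 in supported ones, with 6 of 16 above 0 in all members. The 13 measured venous genes had a median of -0.29 in all members, with 3 above 0, and 11 measured ones had -0.49 in transporter-bearing and 0.13 in supported members. Sox17 of the arterial list and Vwf of the venous list are among the 22 genes that define support. The medians in supported members are thus not independent of that choice, and the barrier list rose there as well, to 0.82. Icam1, which binds leukocytes, stood at 49.8 and 47.5 CPM, a ratio of -0.07 (-0.71 to 0.58), and Vcam1 at 62.9 and 49.4, -0.35 (-0.94 to 0.25). Both intervals hold 0. Cxcl12 stood at 916 and 515 CPM in all members but at 1202 and 1228 in supported ones. Metabolic lists stayed near all genes: 20 oxidative-phosphorylation genes had a median of -0.05 in all members and in supported ones, and 16 glycolysis genes -0.05 and 0.00.

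**Figure D5:**
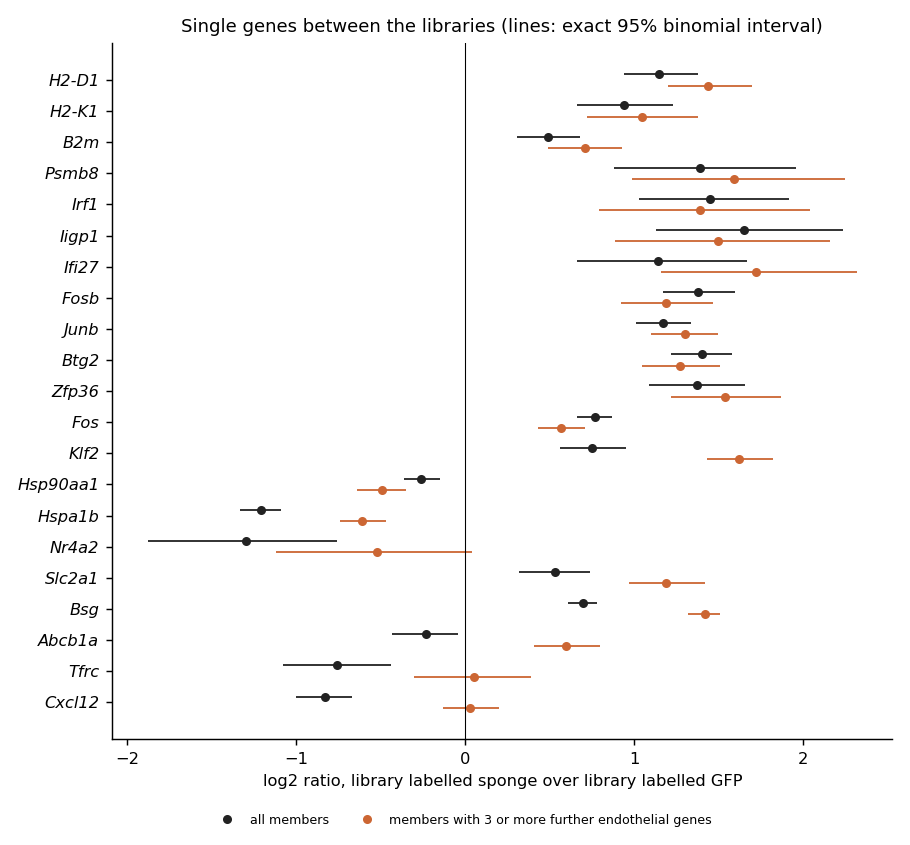
Log2 ratio of the sponge library over the GFP library (horizontal axis) for 21 genes, in all members (black) and in supported members (orange); lines are exact 95% binomial intervals. H2-D1, Junb and Btg2 lie above 0 in both sets, Hspa1b lies below 0 in both, and Abcb1a lies at -0.23 in all members and 0.60 in supported members.

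Genes with a miR-181 seed match were compared because the sponge is directed against these microRNAs. In members, 2133 measured genes with a match had a median log2 ratio of 0.03 and 7461 with an annotated 3' UTR and no match 0.09. In supported members the medians were -0.02 for 1700 genes and 0.09 for 5506, and in kept cells outside the candidates 0.02 and 0.10. The median of genes with a match was thus not the higher one in any of these sets. Since eGFP went against the labels, which are used only as names, this direction is not assigned to either vector. An effect of the sponge was not tested. Among 18 measured genes reported elsewhere as miR-181 targets, 10 were above 0 with a median of 0.21: Bcl2l11, a death promoter, stood at 26.2 and 61.7 CPM, Bcl2, a death inhibitor, at 68.2 and 33.2, and Xiap, an inhibitor of caspases, at 316 and 206.

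The genes whose matches are printed above showed small ratios in all members. Flt1 had 0.22 (0.13 to 0.30), Timp3 0.26 (0.09 to 0.43), Abcc4 0.17 (-0.16 to 0.51) and Slc7a1 -0.35 (-0.61 to -0.10). In supported members the ratios were 0.87 for Flt1, 0.14 for Timp3, 0.94 for Abcc4 and 0.39 for Slc7a1, beside a barrier-list median of 0.82. UMIs of eGFP numbered 5 in 4 members of the sponge library (3.05%) and 0 of 249 in the GFP library, which allows a share of up to 1.20%. Of rod-gene cells in the sponge library, 2.90% held eGFP. Whether the members' UMIs came from free RNA was not tested.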

How the data were processed

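The deposited files hold UMI counts per gene and barcode, 1 matrix per library, from the 10x Genomics 3' V3.1 chemistry. Cell Ranger 7.0.0 and the build mm10 are named in the submitters' processing notes, without further settings. The authors' counts were used as deposited: 123040365 UMIs over 39461 barcodes in the library labelled GFP and 132067896 over 23267 in the library labelled sponge. The 32286 listed features included eGFP. No cell annotation was used and no doublets were removed.

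Counts were summed over the cells of a set and given as CPM, scaled to 1000000 UMIs of the set, with exact Poisson intervals. A log2 ratio adds 0.5 to both counts and has an exact binomial interval; a gene was measured with at least 20 counts in the sets compared. Shares have Clopper-Pearson intervals, and a share of 0 allows up to 3 counts. All intervals are at 95% and cover counting error only. Cells were thinned to 1000 UMIs where depth mattered. Rod-gene cells had UMIs of at least 3 rod phototransduction genes and none of the 7 endothelial genes. The calculations ran in Python 3.11.15 with numpy 2.4.6, scipy 1.17.1 and pandas 2.3.3 and were tested on simulated counts.

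The members, the gene lists and the rules were chosen with earlier results of these data known. Named genes between libraries were the 15 highest and 15 lowest, ranked on whichever end of the interval lay closer to 0. They needed 50 counts, 20 CPM in either library and a mean level of 0.25 or more of that in other cells. Within libraries they were the 12 highest and 12 lowest with the same direction in both. Genes of the lists and of the rule were also named. Seed matches were searched in the 3' UTRs of the GENCODE annotation given for mm10, and microRNAs were matched by name to RefSeq. Some items are not reported here.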

Additional observations from a re-analysis of the deposited data

Results flagged for a closer look

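UMIs of eGFP, which no comparison of the members uses, were counted above the control library: 5 in members of the library labelled sponge and 0 in those of the library labelled GFP. The share of members with eGFP, 3.05%, stands beside 2.90% in rod-gene cells of the same library, and no transporter-bearing member held it.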

How the results depend on the processing

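Members were 0.634% and 0.565% of kept cells. The shares were 0.921% and 0.826% with 1000 UMIs, 500 genes and at most 10% mitochondrial UMIs required, 0.495% and 0.637% with the rule on thinned cells, where the order of the libraries turned, 0.283% and 0.254% with 4 or more rule genes, 1.47% and 1.35% when an excluding gene needed 2 UMIs, and 87.4% and 85.6% of all endothelial cells of the rule. The 720 genes at least 2-fold higher in the sponge library became 341 with 50 or more counts, 3179 with 1 or more, 238 on thinned cells, 436 with 4 or more rule genes and 127 with more excluding genes. The 481 lower ones became 207, 3216 and 214 in the first 3 of these, 100 with more excluding genes, which left 23 and 9 members, and 891 with the exclusion at 2 UMIs. The genes measured changed as well, from 10012 to 6426 with 50 or more counts, 18868 with 1 or more and 3925 on thinned cells. They numbered 6702 with 4 or more rule genes, 735 with more excluding genes and 12973 with the exclusion at 2 UMIs. Counts under different alternatives are therefore not comparable as shares. On thinned cells the higher and lower genes were 156 and 201 in transporter-bearing members, beside 642 and 470 unthinned. In members with none they were 107 and 70, beside 516 and 382. For transporter-bearing over Plvap-positive cells they were 42 and 20, beside 121 and 94, and all members, unthinned, gave 143 lower. Over members with none they were 103 and 56, beside 358 and 129. The genes measured in these thinned sets are not given here, so no change of share can be read. Of the list medians, pan-endothelial genes moved from 0.11 to 0.81 with 4 or more rule genes, 0.94 with more excluding genes, 0.89 in supported members and 0.96 without members with over 1% of UMIs in another cell type's list. Barrier genes moved from 0.03 to 0.73, 1.04, 0.82 and 0.85 in the same order. The interferon response reached 1.92 with more excluding genes and the immediate early list 1.06 with the exclusion at 2 UMIs, and antigen presentation stayed within its interval under every alternative run. The cause of these moves was not tested, beyond fewer cells or genes entering.

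Directions that turned were, with 4 or more rule genes, Abcb1a 0.49, Kdr -0.02, Krt15 -1.33, Krt5 -1.17, Krt6a -1.67, Ly6c1 0.39, Nlgn1 -1.67, Slc7a1 0.28 and Synpr -0.98. With more excluding genes they were Abcb1a 1.04, Fos -0.04, Hspa1b 0.03, Kdr -0.43, Ly6c1 1.04, Slc6a6 0.64, Tfrc 0.06 and Timp3 -1.16. In supported members they were Abcb1a 0.60, Cd74 -0.02, Cxcl12 0.03, Krt15 -0.77, Krt5 -0.61, Krt6a -1.11, Ly6c1 0.52, Nlgn1 -2.03, Slc7a1 0.39, Synpr -2.35 and Tfrc 0.05. Without members rich in another list they were Abcb1a 0.65, Hbb-bs 0.48, Krt5 -0.02, Ly6c1 0.51, Nlgn1 -1.45, Slc7a1 0.37, Synpr -1.43 and Tfrc 0.16. With the exclusion at 2 UMIs they were Abcb1a 0.15, Ly6c1 0.13, Nr4a2 0.22 and Slc7a1 0.22, without the deepest 10% of members Dll4 -0.03, Krt15 -0.07 and Krt5 -0.15, and on thinned cells Tfrc 0.18 (0.24 with a transporter), Xiap 0.07 and the fenestrated median of transporter-bearing members over those with none in the sponge library, -1.25. Of 1461 values of single genes under alternatives, 1051 stayed within their interval, 364 moved outside it and 46 turned. The size factor from medians of ratios subtracted 0.01 from all log2 ratios, and scaling to pan-endothelial genes subtracted -0.02. The former thus lowered every ratio slightly and the latter raised it. Supported members, members without another list, scaling to the pan-endothelial list and the exclusion at 2 UMIs were alternatives chosen after the data were seen. No library could be left out, since each group has 1. No paired analysis was possible because each group has 1 library and no test was made.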
